A study of Mus musculus with 288 samples.

Results

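The daily cycle of gene expression in mouse liver was followed on 24 arrays, which are all the arrays labelled liver among the 288 of a 12-tissue atlas of circadian expression. Each array stands for a single time, at steps of 2 h between CT18 and CT64 (CT, circadian time), where CT0 is the start of the subjective day and CT12 the start of the subjective night. C57/BL6 mice spent 1 week under 12 h of light alternating with 12 h of dark, after which light-tight boxes kept them in constant darkness until collection. Each array held the liver RNA of 3 mice, pooled after extraction, so the spread between single animals was not seen, and the labels used here give no sex, age or feeding schedule. The deposited intensities of 19938 genes were taken to log2 and are called log2 levels here. They describe RNA per sample, in which more cells of a type and more RNA per cell cannot be told apart. A 24 h wave (cosine and sine) was fitted to each gene, and a gene was called rhythmic where the moderated F test gave an adjusted p under 0.05 over all genes. The size of a wave is the fitted ratio of peak to trough, given as a fold with its 95% interval, and its time is the fitted peak with its standard error (SE).

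As background, the mammalian clock is a feedback loop in which CLOCK and BMAL1 bind E-box sequences and switch on their own repressors, the PER and CRY proteins. A second loop, formed by the REV-ERB and ROR receptors, sets the transcription of the gene for BMAL1, and the PAR bZIP factors DBP, TEF and HLF together with their antagonist NFIL3 pass the rhythm on through D-box sequences. In liver the clock acts beside cues of feeding, temperature and glucocorticoid hormone, and the organ is known for daily changes in the storage and release of glucose, in the making of fat, cholesterol and bile acids, and in the handling of foreign compounds.

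To show the sequences through which the clock is known to act, promoters (250 bases before to 50 bases after the gene start, RefSeq, mouse build GRCm38.p6) were searched on both strands, and 19116 promoters of 15563 measured genes were available. Ciart, a repressor of CLOCK and BMAL1 (chr3:95882179-95882478, minus strand), held 3 E-boxes, CACGTG, and the core repressor Cry1 (chr10:85185005-85185304, minus strand) held 1. Per3, a period gene (chr4:151044616-151044915, minus strand), held 2 D-boxes, searched as TTATGTAA and TTACGTAA. These promoters were shown because they hold the letters. Of 15 promoters of core clock genes, 4 held the E-box and 1 held the D-box. The capitals below mark the matches, and each promoter is written 5′ to 3′ on the strand of its gene.
Ciart: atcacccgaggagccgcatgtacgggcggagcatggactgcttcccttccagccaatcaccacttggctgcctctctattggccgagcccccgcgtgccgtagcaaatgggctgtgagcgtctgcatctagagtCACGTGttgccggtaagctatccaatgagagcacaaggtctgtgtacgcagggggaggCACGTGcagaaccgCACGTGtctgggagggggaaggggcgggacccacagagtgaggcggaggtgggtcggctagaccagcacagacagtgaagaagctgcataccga
Cry1: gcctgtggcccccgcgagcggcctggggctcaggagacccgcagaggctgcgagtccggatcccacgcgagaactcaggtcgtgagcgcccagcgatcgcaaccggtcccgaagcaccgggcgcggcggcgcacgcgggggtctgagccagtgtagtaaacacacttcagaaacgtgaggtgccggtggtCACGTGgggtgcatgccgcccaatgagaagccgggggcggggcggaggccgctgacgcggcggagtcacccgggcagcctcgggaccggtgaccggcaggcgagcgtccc
Per3: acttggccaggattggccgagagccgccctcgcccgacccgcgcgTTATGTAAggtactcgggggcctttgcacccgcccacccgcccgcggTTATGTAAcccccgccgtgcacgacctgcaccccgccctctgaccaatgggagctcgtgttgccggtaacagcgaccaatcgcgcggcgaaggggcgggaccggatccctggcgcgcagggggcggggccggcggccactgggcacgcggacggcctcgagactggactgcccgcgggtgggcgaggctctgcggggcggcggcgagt
The E-box letters were present in 8.26% of all promoters, in 9.92% of the promoters of genes called rhythmic in liver and in 13% of those of called genes above 1.5-fold. By peak time, they were present in 29.8% (17 of 57) of the promoters of genes above 1.5-fold that peaked from CT9 to CT12, and in 9.31% (23 of 247) of those that peaked from CT21 to CT24. The D-box letters were in 0.999% of all promoters and in 11.3% (7 of 62) of the promoters of genes above 1.5-fold that peaked from CT12 to CT15. These shares describe letters in a window and were not tested.

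All 13 measured core clock genes and all 8 clock output genes were called rhythmic, against 26.8% of all genes (5343 of 19938). Nr1d1, which encodes the repressor REV-ERB alpha, had the largest wave in the liver. Its log2 level was 7.20 at its lowest (CT46), 9.86 at the median and 11.99 at its highest (CT52), and the fitted fold was 18.4 (11.6 to 29.1, adjusted p = 2.23e-09) with the peak at CT6.99 (SE 0.293 h). The rise was steep: from 7.38 at CT48, Nr1d1 reached 10.14 at CT50 and 11.99 at CT52. Its relative Nr1d2 followed at CT9.19, with a fold of 4.85 (3.72 to 6.31). Dbp, an activator of D-box genes, ran from 6.47 (CT24) through a median of 8.72 to 10.83 (CT54), a fold of 13.7 (9.38 to 19.98) with the peak at CT9.48. Arntl, the gene for BMAL1, was nearly the mirror image of Dbp, lowest at CT32 (5.90) and highest at CT22 (9.47), with a fitted peak at CT21.7. The arrays from CT20 to CT26 and from CT44 to CT50 all read between 9.32 and 9.47 for Arntl, a flat top that a single cosine does not follow.

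The repressors of the loop came in sequence from the later part of the subjective day into the subjective night. Ciart peaked at CT10.8 with a fold of 10.7 (7.25 to 15.8), from 6.31 at CT50 through a median of 8.12 to 10.37 at CT56, and its second probe set gave 15.3-fold. Per1 peaked at CT11.3 with a fold of 2.84 (2.03 to 3.98), Per3 at CT11.7 with 5.02 (3.76 to 6.70) and Per2 at CT14.2 with 4.40 (3.43 to 5.64). Cry2 peaked at CT13.5 with a fold of 1.48 (1.27 to 1.73), while Cry1 was about 5 h later, at CT18.8 (SE 0.224 h), with a fold of 3.72 (3.18 to 4.37). The related repressors Bhlhe41 and Bhlhe40 peaked at CT7.88 (2.81-fold, 1.88 to 4.18) and CT12.1 (1.72-fold, 1.23 to 2.39, adjusted p = 0.0383). The call of Bhlhe40 was lost with a straight line as covariate (adjusted p = 0.105) and with array weights (0.0843), and when any of 9 single arrays was left out (up to 0.0964), as well as without CT34 and CT58 together (0.0671). Among the activators, Clock peaked at CT22.6 and Rora, which raises Arntl, at CT22.3 with a fold of 1.13 (1.06 to 1.20). Of the output factors, Tef peaked at CT11.4 (3.10-fold, 2.53 to 3.80) and Hlf at CT12.5 (1.49-fold, 1.33 to 1.67), and their antagonist Nfil3 at CT21.1, about 9 h after them. Usp2, a deubiquitinase, varied 5.90-fold (3.73 to 9.33, peak CT12.7), Wee1, a brake on mitosis, peaked at CT13.0, the tetraspanin Tspan4 at CT14.7 (2.12-fold, 1.88 to 2.39) and the elongation factor subunit Leo1 at CT21.2 (1.64-fold, 1.51 to 1.78). The median fold was 3.72 over the core clock genes and 3.60 over the output factors, beside 1.09 over all genes.

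Hepatocyte markers (9 of 10 measured) had a mean log2 between 13.61 and 13.70 on all 24 arrays, and markers of T and NK cells lay between 5.63 and 5.78, pancreatic acinar markers between 6.31 and 6.80 and kidney tubule markers between 5.89 and 6.71. Markers of liver endothelium ranged from 9.29 (CT34) to 9.82 and of Kupffer cells and macrophages from 8.95 (CT58) to 9.43. Of the 8 endothelium markers 4 were called, and their mean profile peaked at CT20.6, among the late-night peaks described below. The part of these cells in those peaks was not tested. The array at CT34 had a median correlation to the others of 0.979, against 0.993 to 0.997 elsewhere. On it the mean log2 of 1228 olfactory, vomeronasal and taste receptor genes was 6.32, against 5.22 to 5.66 on the other 23 arrays, and 1104 of these genes (89.9%) were highest at CT34, beside 17.4% of all genes. The mean of the genes above the median level was at its lowest there, 8.93 against 9.04 to 9.19 on the other arrays, and the next lowest was CT58, which also had the second highest receptor mean. CT34 and CT58 fall at the same hour of the cycle. The fits were repeated without CT34, without both arrays and with the receptor mean as a covariate. The arrays at CT46 and CT48 read nearly alike for several variable genes, such as Hamp (12.52 on both) and Dusp1 (10.30 and 10.29). One cycle earlier, at CT22 and CT24, Hamp read 12.19 and 12.94. Ciart did differ between CT46 and CT48 (7.18 and 7.47). Whether these 2 arrays are independent pools was not tested.

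**Figure D1:**
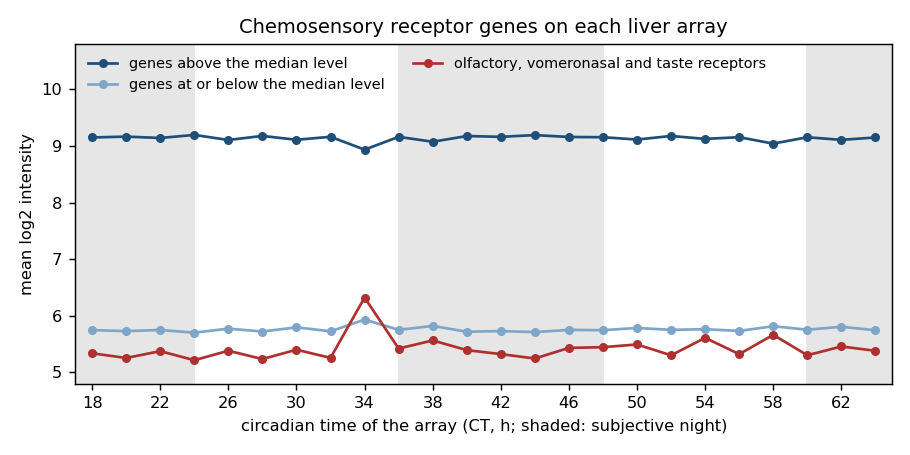
Mean log2 intensity (y axis) of chemosensory receptor genes (red), of genes above the median level (dark blue) and of genes at or below it (light blue) on each of the 24 liver arrays, against circadian time in h (x axis), with the subjective night shaded. The receptor mean stands at 6.32 at CT34 and between 5.22 and 5.66 on the other arrays, while the genes above the median level are lowest at CT34.

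Over the whole liver, 5343 genes were called rhythmic. A peak in the subjective day was found for 2095 of them (10.5% of all genes) and a peak in the subjective night for 3248 (16.3%). Most waves were shallow: the median fold of the called genes was 1.23, and 634 (3.18% of all genes) exceeded 1.5-fold, 165 exceeded 2-fold and 21 exceeded 4-fold. Rhythmic genes were mostly well expressed, since 86.4% of them lay above the median level of all genes (log2 6.93). The share called over all genes, 26.8%, is therefore lowered by faint genes. It is a low mark for lists of well-expressed genes, and no list was set against genes of like level. Of all called genes 39.2% peaked in the day, the mark for the day and night counts of the lists below. No such split was tested. The typical peak time was known to within a median SE of 0.832 h. Peak times were uneven: 1557 called genes (29.1%) peaked from CT21 to CT24 and 972 (18.2%) from CT18 to CT21, against 347 (6.49%) from CT12 to CT15 and 380 (7.11%) from CT3 to CT6. A smaller crest of 592 genes (11.1%) lay from CT9 to CT12. Among the genes above 1.5-fold, 215 peaked from CT21 to CT24, 119 from CT18 to CT21 and 34 from CT3 to CT6.

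The height of the crest before subjective dawn depended on the array at CT34 and on its neighbour in phase. Without the array at CT34, 24.0% of 5318 called genes peaked from CT21 to CT24, and without CT34 and CT58 21.1% of 4954 did. With the receptor mean of each array as a covariate the share was 19.7% of 5536, and 14.4% peaked from CT9 to CT12. In each of these alternatives, the last 2 of which were added after the data were seen, CT21 to CT24 still held more called genes than any other 3 h window. Genes called with and without the receptor covariate numbered 4549, and 4424 were called both on all arrays and without CT34 and CT58.

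**Figure D2:**
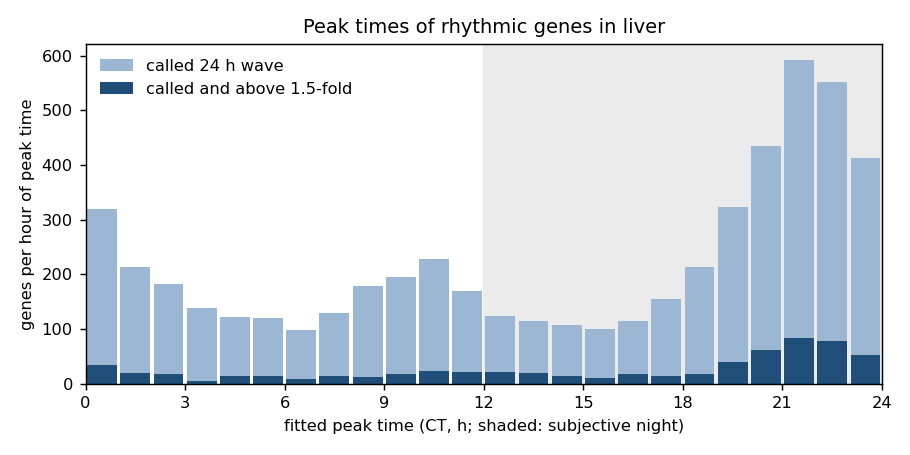
Number of genes (y axis) with a called 24 h wave by hour of fitted peak time (x axis, CT in h), for all 5343 called genes (light bars) and the 634 above 1.5-fold (dark bars), with the subjective night shaded. The tallest bar is the hour from CT21, with 592 called genes, and the lowest is the hour from CT6, with 99.

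The second circadian day was set against the first. Fitted on the first cycle alone (12 arrays, CT18 to CT40), 1145 genes were called, and 1054 of these had an unadjusted p under 0.05 on the second cycle (CT42 to CT64), beside 27.8% of all genes. In 1050 of the 1145 (91.7%) the second cycle also peaked within 4 h of the first. On the second cycle alone 2914 genes were called, and the cause of the larger count was not tested. The test of a difference in wave between the cycles called 0 genes (0.0%, limma moderated F test), with 671 at an unadjusted p under 0.05 and a lowest adjusted p of 0.416. A straight trend over the 2 days was also called in 0 genes (0.0%), with 646 at an unadjusted p under 0.05 and a lowest adjusted p of 0.167. Nr1d1 had a fold of 15.1 on the first cycle and 22.8 on the second, and Arntl 12.9 and 11.8.

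**Figure D3:**
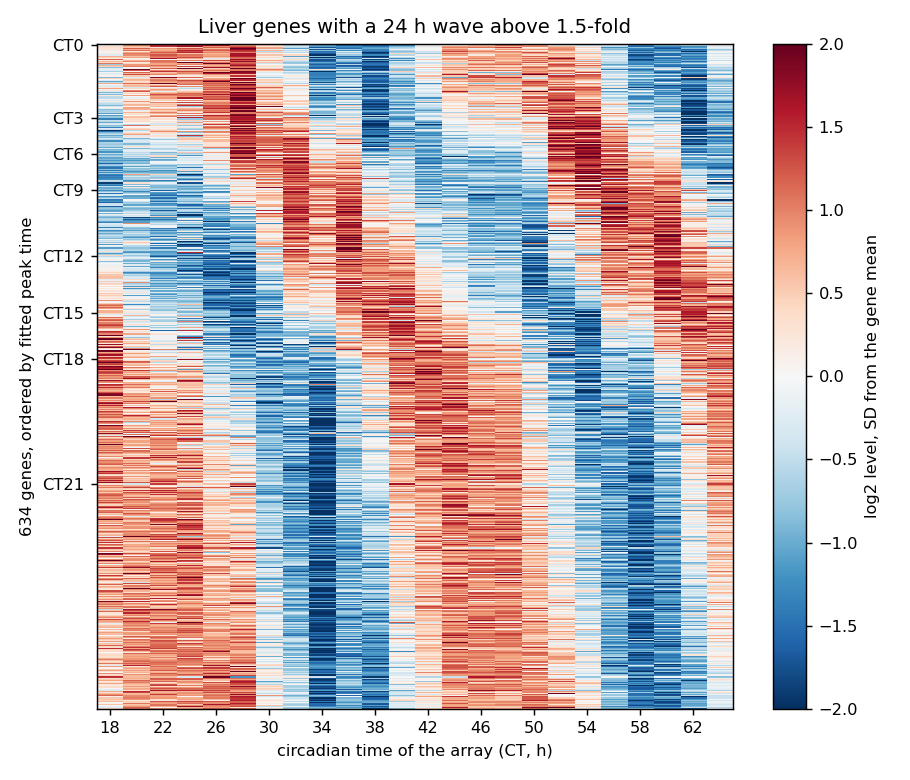
Log2 levels of the 634 liver genes with a called wave above 1.5-fold, 1 gene per row ordered by fitted peak time (y axis, from CT0 at the top), on the 24 arrays in order of circadian time (x axis, h). Colour is the distance from the mean of the gene in SD, red above and blue below, and the red band passes down the plot in each of the 2 days, with its widest block in the rows that peak from CT18 to CT24.

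At subjective dawn, from CT0 to CT3, Egr1 had the largest wave, and Phospho1, Camk1d and Depp1 had the largest among genes above the median level whose 2 cycles peaked within 4 h of each other. Phospho1, a phosphatase of phosphocholine and phosphoethanolamine, ran from log2 6.61 (CT38) through a median of 7.76 to 8.89 (CT26), a fold of 3.08 (2.60 to 3.65, peak CT1.22, adjusted p = 1.01e-09). Camk1d, a calcium-dependent kinase, ranged from 8.64 to 10.77 (2.93-fold, 2.39 to 3.59, peak CT0.828). Depp1, a gene regulated by FOXO factors, varied 2.88-fold (1.73 to 4.79, peak CT0.716), highest at CT26 and CT28 (10.81 and 10.65) and again at CT54 (10.33). Its fold was 4.46 on the first cycle and 1.93 on the second. On the second cycle alone the moderated F test gave an unadjusted p of 0.208. The immediate early gene Egr1, a zinc finger factor of growth signalling, varied 3.34-fold (1.87 to 5.98, peak CT1.25, adjusted p = 0.00665), with its highest array at CT22 (9.71) and its lowest at CT42 (6.13). Of the 19 measured immediate early genes 6 were called (31.6%, near the 26.8% of all genes), 3 in the day and 3 in the night. Fos itself stayed between 5.95 and 6.58 (1.05-fold, adjusted p = 0.806), below the median level of all genes (6.93), where a wave may not be seen. Myc, although it ranged from 6.48 to 9.97, did not pass (2.54-fold, 1.19 to 5.47, adjusted p = 0.150).

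Genes of insulin and growth signalling had peaks spread over the cycle. Igfbp1, an insulin-repressed binding protein of growth factors, ran from 7.52 (CT38) through 8.84 to 10.67 (CT50), a fold of 2.36 (1.45 to 3.85, peak CT1.55, adjusted p = 0.0244). High and low arrays of Igfbp1 were mixed in time, and its call was lost with array weights (adjusted p = 0.0771) and with a straight line as covariate (0.0617), and without CT26, CT38, CT50 or CT62 (0.0522 to 0.0663). Irs2, an adaptor of the insulin receptor, varied 1.52-fold (1.26 to 1.83, peak CT0.730), and Stat5b, which carries growth hormone signals, 1.87-fold (1.64 to 2.13, peak CT23.8). The receptor Insr itself varied 1.16-fold (1.07 to 1.25, peak CT4.18). Ddit4, an inhibitor of mTOR complex activity, peaked at CT19.0 (1.88-fold, 1.56 to 2.28), while Mtor peaked at CT7.17 (1.36-fold, 1.24 to 1.5). In the list of insulin, growth and nutrient signalling 17 of 26 were called, 7 in the day and 10 in the night, with a median fold of 1.23 over all measured members.

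Protein breakdown by the proteasome had small waves, most of them with a peak in the subjective day. Of 29 measured subunits 18 were called, 14 of them with a peak in the day, none of the 18 exceeded 1.5-fold, and the median fold was 1.12. Psmd11, a subunit of the regulatory lid, ranged from log2 10.68 to 11.13 (1.33-fold, 1.26 to 1.40, peak CT0.895), and Psma1, of the core particle, varied 1.12-fold with a peak at CT3.52. For 18 of the 29 subunits the lowest array was CT34, the array that stood apart. Without it 18 were called, and with the receptor covariate 15. Autophagy genes were called in 9 of 21 (42.9%), beside 26.8% of all genes. Gabarapl1, which builds the autophagosome membrane, varied 1.66-fold (1.52 to 1.81) with the peak at CT4.96, Ulk1, the kinase that starts autophagy, 1.56-fold (1.37 to 1.78) at CT6.44, and the mitophagy receptor Bnip3 1.53-fold (1.40 to 1.67) at CT12.3. The cargo adaptor Sqstm1 peaked earlier, at CT1.24 (1.31-fold, 1.24 to 1.38). Tfeb, a master factor of lysosomal genes, varied 1.12-fold (1.05 to 1.19, peak CT13.5) and missed without CT50 (adjusted p = 0.053).

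The morning hours from CT3 to CT6 held few large waves. Casp6, a caspase, ran from 8.71 (CT62) through 9.65 to 10.58 (CT52), a fold of 2.59 (2.14 to 3.14, adjusted p = 9.61e-08) with the peak at CT5.26, and its folds on the 2 cycles were 2.52 and 2.66. Slc8b1, the sodium-calcium exchanger of mitochondria, varied 1.95-fold (1.63 to 2.34, peak CT4.42). Cyp4a14, which hydroxylates fatty acids, had a fold of 1.92 (1.26 to 2.92, peak CT4.01) but only just passed (adjusted p = 0.0499), and it missed in the rank test (0.0754) and when any of 18 single arrays was left out (up to 0.106). In the list of cold-inducible RNA binding, which also holds splicing factors and splicing kinases, 5 of 6 were called and all 5 peaked between CT0 and CT12. Cirbp, whose RNA is known to follow body temperature inversely, ran from 8.44 (CT38) through 8.94 to 9.81 (CT28), a fold of 1.55 (1.30 to 1.86, peak CT4.07, adjusted p = 0.00158). The splicing factor Srsf5 peaked at CT5.15 (1.34-fold, 1.20 to 1.5), the splicing kinases Clk1 and Clk4 at CT3.76 and CT6.78, and Rbm3 at CT11.7 (1.26-fold, 1.10 to 1.44). The call of Rbm3 was lost with a straight line as covariate (adjusted p = 0.0625) and without any of 7 single arrays (up to 0.0642).

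Around the middle and end of the subjective day the largest non-clock wave of the liver appeared. Rgs16, which ends signalling by G proteins (chromosome 1, 153740353 to 153745468, GRCm38.p6), stood at a median of 8.17, reached 10.54 at CT32 and 11.48 at CT54, and was between 7.30 and 7.94 on all 11 arrays of CT18 to CT26 and CT40 to CT50. Its fold was 8.13 with the peak at CT8.97. Clec2h, a lectin-like receptor, varied 3.34-fold (2.33 to 4.79, peak CT6.82), with its highest array at CT54 (10.49) and its lowest at CT46 (7.96). Gpcpd1, which frees choline from glycerophosphocholine, ranged from 9.99 to 11.97 (3.21-fold, 2.47 to 4.16, peak CT7.97). Nrg4, a growth factor of the neuregulin family, ran from 7.16 (CT50) through 8.33 to 9.91 (CT32), a fold of 4.19 (3.14 to 5.59, peak CT11.0). Mfsd2a, a transporter of lysophosphatidylcholine, went from 8.28 (CT28) through 10.02 to 11.58 (CT60), a fold of 3.87 (2.41 to 6.20, peak CT11.7, adjusted p = 0.00026).

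The exporters of sterols and several bile transporters peaked in the second part of the subjective day, and the bile salt export pump did not. Both subunits of the cholesterol exporter of the canalicular membrane rose together: Abcg8 ran from 9.41 (CT42) through 10.05 to 10.88 (CT54), a fold of 2.39 (2.04 to 2.80, peak CT7.44), and Abcg5 from 10.73 (CT22) through 11.43 to 12.04 (CT36), a fold of 2.23 (1.97 to 2.53, peak CT9.28). The organic anion pump Abcc2 peaked at CT9.15 (1.32-fold, 1.25 to 1.39), the phospholipid exporter Abcb4 at CT6.45 (1.27-fold, 1.17 to 1.37), and the uptake carriers Slco1a4 and Slco1b2 at CT9.43 (1.61-fold, 1.29 to 2.01) and CT8.29 (1.26-fold, 1.19 to 1.34). Abcb11, the bile salt export pump, ran from 12.29 (CT34) through 12.68 to 12.97 (CT28), a fold of 1.48 (1.37 to 1.58) with the peak at CT0.482. Abcb1a, a drug efflux pump, peaked at CT12.4 (1.57-fold, 1.37 to 1.80). Of the 16 measured genes of bile transport 11 were called, 7 in the day and 4 in the night, and the median fold was 1.28. Slc10a1, the main uptake carrier of bile salts, varied 1.04-fold and did not pass (adjusted p = 0.182). The mean profile of the list peaked at CT8.53 (SE 0.549 h).

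Bile acid synthesis did not share that time. Cyp7a1, the rate-limiting enzyme, ran from 11.61 (CT28) through 12.43 to 12.86 (CT32), a fold of 1.42 (1.19 to 1.70, peak CT14.2, adjusted p = 0.0112). Cyp8b1, Hsd3b7 and Acox2, which act on later intermediates, peaked near dawn, at CT0.0243, CT1.72 (1.78-fold, 1.64 to 1.93) and CT22.8 (1.34-fold, 1.25 to 1.44). Nr0b2, which encodes SHP, a repressor of Cyp7a1, peaked at CT2.72 (1.71-fold, 1.40 to 2.10), nearly opposite to Cyp7a1. The bile acid receptor Nr1h4 peaked at CT13.0 (1.22-fold, 1.10 to 1.36), and the conjugating enzyme Baat at CT20.9 (1.26-fold, 1.17 to 1.35). In all 11 of 14 were called, 4 in the day and 7 in the night. Cyp27a1, which starts the alternative pathway, varied 1.06-fold (1.03 to 1.09, adjusted p = 0.0230).

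Genes of fatty acid oxidation peaked at several times of day, and the mean profile of the list had no settled peak (CT1.31, SE 1.75 h). Cpt1a, which admits long-chain fatty acids to mitochondria, ran from 11.72 (CT44) through 11.97 to 12.40 (CT60), a fold of 1.51 (1.42 to 1.61, peak CT9.26, adjusted p = 1.46e-09). Ppara, the nuclear receptor of fasting, peaked at CT10.1 (1.49-fold, 1.35 to 1.65) and Bdh1, which interconverts ketone bodies, at CT7.88 (1.36-fold, 1.27 to 1.45). The lipase Pnpla2, counted with the lipid droplet genes, peaked at CT8.42 (1.59-fold, 1.45 to 1.75). Pdk4, which spares pyruvate by inactivating its dehydrogenase, instead peaked at CT21.8. Its log2 level was highest at CT50 (9.997) and lowest at CT56 (6.99), 3 arrays later. The thioesterases Acot1 and Acot2 peaked at CT19.9 (1.75-fold, 1.46 to 2.11) and CT0.378 (1.57-fold, 1.37 to 1.80). Of 26 measured genes 13 were called, 9 in the day and 4 in the night, and enzymes of the mitochondrial spiral moved little, as the fold of Acadl was 1.06, of Hadha 1.05 and of Acaa2 1.02, none of which passed. Fgf21, a fasting hormone, stayed between 5.64 and 5.89, below the median level of all genes (6.93), where a wave may not be seen.

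Genes of glucose release and uptake had peaks at several times. Pck1, the gate enzyme of gluconeogenesis, ran from 12.06 (CT64) through 12.77 to 13.25 (CT60), a fold of 1.55 (1.28 to 1.88, peak CT8.42, adjusted p = 0.0028). Slc37a4, which carries phosphorylated glucose to the site of its hydrolysis, peaked at CT13.1 (1.59-fold, 1.49 to 1.70), whereas G6pc, the hydrolase, varied 1.17-fold and did not pass (adjusted p = 0.358). Slc16a1, a lactate transporter, peaked at CT21.8 (1.51-fold, 1.38 to 1.66). Of the 13 measured genes of glucose output 5 were called (38.5%). On the side of uptake and glycolysis 10 of 15 were called. Pfkfb3 and Pfkfb2, which make the activator of phosphofructokinase, peaked at CT10.1 and CT11.6 (1.42-fold, 1.24 to 1.63), the liver pyruvate kinase Pklr at CT16.6 (1.39-fold, 1.25 to 1.55), the triokinase Tkfc at CT15.1 (1.35-fold, 1.21 to 1.5) and the transporter Slc2a1 at CT19.1 (1.42-fold, 1.27 to 1.58).

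Glycogen genes had no common peak time. Stbd1, a glycogen-binding adaptor, peaked at CT9.95 (1.49-fold, 1.31 to 1.68) and Gys2, the liver glycogen synthase, at CT12.8 (1.64-fold, 1.45 to 1.87). The targeting subunits that bring a phosphatase to glycogen came after them, Ppp1r3b at CT17.8 and Ppp1r3c at CT22.0. Ppp1r3b ran from 8.28 (CT54) through 10.19 to 10.68 (CT40), a fold of 2.72 (2.12 to 3.48, adjusted p = 2.53e-06). Pygl, the phosphorylase that degrades glycogen, varied 1.13-fold (1.05 to 1.21, peak CT21.2). Of 15 measured genes 11 were called, 5 in the day and 6 in the night. The mean profile of the list peaked at CT18.9 (SE 1.02 h), but at CT11.0 (SE 2.36 h) when each gene was scaled to its own SD, so the list had no settled peak.

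In the list of amino acid transport 76.5% of the measured members were called, beside 26.8% of all genes, faint genes included. Slc25a47, a mitochondrial carrier of liver counted in this list, ran from 11.03 (CT64) through 11.68 to 12.56 (CT56), a fold of 2.12 (1.79 to 2.51, peak CT8.24). Slc7a2, a carrier of arginine and lysine, and Slc38a2, a carrier of neutral amino acids, peaked at CT7.45 (1.68-fold, 1.46 to 1.92) and CT8.55 (1.65-fold, 1.42 to 1.90), and Slc6a9, a glycine carrier, at CT13.0 (1.51-fold, 1.38 to 1.64). In total 13 of 17 were called, 5 in the day and 8 in the night. Enzymes of amino acid breakdown had lower waves, with 13 of 23 called and none above 1.5-fold. Agxt, an aminotransferase of glyoxylate, peaked at CT3.69 (1.47-fold, 1.33 to 1.63), Hal, which removes ammonia from histidine, at CT0.326 (1.39-fold, 1.30 to 1.48) and Tat, of tyrosine breakdown, at CT16.1 (1.15-fold, 1.08 to 1.23). The urea cycle had 4 called of 9 (44.4%). Argininosuccinate lyase Asl peaked at CT16.1 (1.34-fold, 1.25 to 1.43) and Nags, whose product activates the cycle, at CT19.8 (1.31-fold, 1.22 to 1.42). Cps1, the entry enzyme, varied 1.03-fold and did not pass (adjusted p = 0.081), although it passed in the rank test (0.0291) and without CT38 (0.0261).

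The mean profile of the glucocorticoid response peaked early in the subjective night, at CT13.5. Fkbp5, a cochaperone of the glucocorticoid receptor, ran from 7.65 (CT50) through 8.88 to 10.12 (CT60), a fold of 3.07 (2.47 to 3.82, peak CT13.5, adjusted p = 6.88e-08). Tsc22d3, also called GILZ, peaked at CT15.2 (1.82-fold, 1.45 to 2.28), the phosphatase Dusp1 at CT15.1 (1.75-fold, 1.35 to 2.26) and Cebpb at CT11.5 (1.45-fold, 1.22 to 1.74). Klf9, another target of the hormone, peaked at CT4.01 (1.56-fold, 1.30 to 1.86), far from the others. The receptor Nr3c1 varied 1.07-fold and did not pass (adjusted p = 0.317). Of 16 measured genes 10 were called, 5 in the day and 5 in the night. Nampt, the rate-limiting enzyme of NAD salvage, ran from 10.22 (CT26) through 11.07 to 11.77 (CT60), a fold of 2.44 (2.17 to 2.73, peak CT13.5, SE 0.240 h). Other genes of the NAD list had peaks elsewhere, such as Kynu at CT0.715 (1.39-fold, 1.30 to 1.49) and Afmid at CT21.0 (1.33-fold, 1.24 to 1.43), both of the route from tryptophan, and Nnmt, which uses up nicotinamide, at CT15.9 (1.36-fold, 1.17 to 1.57). The NAD list had 13 of 17 called, 3 in the day and 10 in the night (39.2% of all called genes in the day). Its mean profile peaked at CT19.6 (SE 1.08 h), later than Nampt.

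Cell cycle genes were called in 7 of 16 (43.8%), and 5 of the 7 peaked from CT10.0 to CT13.0. Ccnd1 and Ccne1, cyclins of the start of the cycle, peaked at CT10.6 (1.58-fold, 1.35 to 1.86) and CT10.0 (1.79-fold, 1.57 to 2.05), and the stress kinase Plk3 at CT11.3 (2.02-fold, 1.41 to 2.89). Alas1, the first enzyme of heme synthesis, ran from 11.65 (CT28) through 12.64 to 13.27 (CT60) with its peak at CT12.1. It was the 1 member of 13 in the heme list above 1.5-fold. Of the 13, 5 were called (38.5%, beside 26.8% of all genes), or 8 with the receptor covariate. All 5 peaked in the night, while 39.2% of all called genes peaked in the day. Nrep, a neuronal regeneration related protein, varied 2.56-fold (2.03 to 3.23, peak CT13.9).

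Ribosome-related genes had low waves. In ribosome biogenesis 14 of 27 were called, 6 in the day and 8 in the night, with a median fold of 1.19 and none above 1.5-fold. Nop16 peaked at CT19.2 (1.47-fold, 1.34 to 1.60), Nolc1 at CT17.0 (1.45-fold, 1.21 to 1.73), Nop56 at CT14.1 (1.39-fold, 1.15 to 1.70) and Polr1b, a subunit of RNA polymerase I, at CT16.9 (1.27-fold, 1.12 to 1.43). Nop56 missed in the rank test (adjusted p = 0.0724) and without CT28, CT38, CT60 or CT62 (0.0605 to 0.0763). Without CT34 18 of the 27 were called, and 19 with the receptor covariate. Cytosolic ribosomal proteins were called in 6 of 21 (28.6%), near the share of all genes, faint genes included, with folds up to 1.26 (Rps9, peak CT11.3). Probe sets of ribosomal proteins may share sequence with their many pseudogenes, which makes single members uncertain.

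Chaperones of the cytosol were nocturnal: 12 of 17 were called, all 12 with a peak in the night, 9 above 1.5-fold, and the median fold was 1.52. Hspb1, the small heat shock protein, ran from 8.10 (CT32) through 9.29 to 10.62 (CT18), a fold of 3.71 (2.99 to 4.61, peak CT19.5, adjusted p = 4.44e-09). Hsph1 (HSP105) ran from 8.40 (CT28) through 9.76 to 10.73 (CT40), a fold of 2.59 (1.84 to 3.62, peak CT16.3), Hspa4l varied 2.42-fold (2.08 to 2.80, peak CT18.9) and Hsp90aa1 2.29-fold (1.90 to 2.77, peak CT18.3). Their partners Stip1 and Fkbp4 peaked at CT18.8 (1.80-fold, 1.60 to 2.02) and CT19.0 (1.76-fold, 1.59 to 1.96), and the constitutive Hspa8 at CT14.9 (1.25-fold, 1.14 to 1.37). Hspd1, a chaperone of mitochondria, varied 1.08-fold and did not pass (adjusted p = 0.0558). The heat shock element was found in 5 of 20 promoters of this list and in 0.492% of all promoters. The promoter of Hsph1 (chr5:149636266-149636565, minus strand), with the match in capitals, was chosen as the one with the largest wave among those that hold the element.
Hsph1: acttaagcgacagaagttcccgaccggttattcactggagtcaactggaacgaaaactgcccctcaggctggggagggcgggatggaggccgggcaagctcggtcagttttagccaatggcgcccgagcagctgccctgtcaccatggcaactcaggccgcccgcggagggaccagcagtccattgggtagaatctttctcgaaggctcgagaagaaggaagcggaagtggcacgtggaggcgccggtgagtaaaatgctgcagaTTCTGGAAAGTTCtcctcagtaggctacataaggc
The mean profile of the list peaked at CT17.6 (SE 0.587 h). That was about 12 h from the peak of the cold-inducible list, with its splicing genes, at CT5.44 (SE 0.839 h).

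Chaperones of the endoplasmic reticulum had 15 of 25 called, beside 26.8% of all genes, faint genes included, and a median fold of 1.19. Of the 15, 3 peaked in the day, Herpud1 and Dnajb9 among them, and 12 in the night. Of all called genes 39.2% peaked in the day. Creld2, a protein of the secretory pathway induced by stress, ran from 10.25 (CT54) through 11.14 to 11.99 (CT62), a fold of 1.75 (1.28 to 2.39, peak CT16.5, adjusted p = 0.0211). Herpud1, of the degradation machinery, peaked at CT11.0 (1.77-fold, 1.5 to 2.08), Dnajb9 at CT11.6 (1.59-fold, 1.24 to 2.03), Hspa5 (BiP), the main chaperone, at CT16.3 (1.23-fold, 1.09 to 1.39), and Sdf2l1 at CT19.6 (1.63-fold, 1.27 to 2.10). Dnajb9 missed with a straight line as covariate (adjusted p = 0.0519), Creld2 without CT28 (0.0514) or CT54 (0.0517), and Hspa5 without any of 7 single arrays (up to 0.0813). The endoplasmic reticulum stress element was found in 40.9% (9 of 22) of the promoters of this list, against 0.115% of all promoters (22 of 19116). It is shown in capitals for Creld2 (chr15:88819396-88819695, plus strand), the called member with the largest wave among those that hold it.
Creld2: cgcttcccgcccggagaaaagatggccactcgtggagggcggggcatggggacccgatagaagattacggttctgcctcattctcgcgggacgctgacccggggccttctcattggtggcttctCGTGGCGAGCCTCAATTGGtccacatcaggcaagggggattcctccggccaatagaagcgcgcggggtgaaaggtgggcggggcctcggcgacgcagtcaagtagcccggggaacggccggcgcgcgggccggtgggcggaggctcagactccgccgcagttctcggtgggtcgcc
Xbp1 and Hsp90b1, although members of this list, varied 1.06- and 1.09-fold and did not pass.

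Fatty acid synthesis was high through the night, in an order of its own. Of 19 measured genes 15 were called, 2 in the day and 13 in the night, with a median fold of 1.45, and the mean profile peaked at CT18.4 (SE 0.583 h). Srebf1, the factor that turns the pathway on, peaked at CT13.5 (1.74-fold, 1.46 to 2.08), and Acaca, the cytosolic acetyl-CoA carboxylase, at CT14.1 (1.41-fold, 1.28 to 1.56). Thrsp, a lipogenic protein also called Spot14, ran from 9.85 (CT52) through 11.82 to 12.75 (CT38), a fold of 3.24 (2.45 to 4.29, peak CT15.6, adjusted p = 1.52e-06). Fasn, the synthase, ran from 11.49 (CT52) through 12.25 to 12.94 (CT40), a fold of 1.76 (1.48 to 2.10, peak CT16.2). Acly, which supplies acetyl-CoA, followed at CT19.6 (1.74-fold, 1.49 to 2.04) and Acacb, the carboxylase at mitochondria, at CT20.8 (2.22-fold, 1.95 to 2.53). The elongase Elovl3 came last of these, near subjective dawn, on a plateau from 13.16 to 13.29 at CT20 to CT26 and 13.28 to 13.38 at CT44 to CT50. Scd1, an abundant desaturase, stayed between 13.67 and 13.91 (1.04-fold, adjusted p = 0.445).

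Glycerolipid and phospholipid synthesis had 13 of 18 called. Lpin1, a phosphatase that makes diacylglycerol, ran from 9.30 (CT24) through 10.91 to 12.28 (CT36), a fold of 3.30 (2.35 to 4.64, peak CT11.3, adjusted p = 1.90e-05), and its relative Lpin2 peaked at CT10.2 (1.57-fold, 1.32 to 1.88). The acyltransferases peaked later, Gpam at CT18.6 (1.45-fold, 1.29 to 1.63) and Agpat2 at CT20.7 (1.70-fold, 1.54 to 1.88). Chka, a choline kinase, ran from 7.86 (CT34) through 9.90 to 10.93 (CT22), and its peak lay at CT21.7 (SE 0.212 h). Among lipid droplet genes 8 of 14 were called. The coat proteins Plin5 and Plin2 peaked at CT17.3 (1.52-fold, 1.27 to 1.81) and CT0.460 (1.45-fold, 1.33 to 1.57), and Mgll, which splits monoacylglycerol, at CT15.2 (1.46-fold, 1.31 to 1.63). Lipoprotein genes had 7 of 16 called (43.8%), with Apoa4 at CT17.5 (1.23-fold, 1.12 to 1.36) and Apoa5 at CT11.6 (1.20-fold, 1.13 to 1.27). Apob varied 1.03-fold and did not pass (adjusted p = 0.306). Angptl4, an inhibitor of lipoprotein lipase, varied 1.55-fold (1.18 to 2.02, peak CT7.91, adjusted p = 0.0388) and missed without CT34 (0.0527) or any of 10 other arrays (up to 0.0786), without CT34 and CT58 together (0.0923) and with the receptor covariate (0.0593).

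Of 13 measured iron genes 7 were called, 3 in the day and 4 in the night, a split near that of all called genes (39.2% in the day). Tfrc, the transferrin receptor, ran from 8.01 (CT54) through 8.91 to 9.74 (CT64), a fold of 2.35 (1.97 to 2.79, peak CT16.4), and Hjv, a coreceptor of the hepcidin pathway, varied 1.64-fold (1.44 to 1.88, peak CT21.6). Hamp, the gene of hepcidin, varied 1.25-fold (1.06 to 1.47) and did not pass (adjusted p = 0.108), although it passed without CT24 (0.031). The list of xenobiotic receptors and phase 1 enzymes had 16 of 26 called, 4 in the day and 12 in the night, with a median fold of 1.13, and 11 were called with the receptor covariate. Cyp2b10, a drug-inducible cytochrome, ran from 8.51 (CT56) through 10.20 to 12.52 (CT28), a fold of 2.62 (1.55 to 4.43, peak CT21.0, adjusted p = 0.0176), and the next highest array after CT28 was CT40 at 11.07. It missed without CT34 and CT58 (0.0667) and with the receptor covariate (0.0567). The receptors of foreign compounds peaked earlier, Ahr at CT7.93 (1.22-fold, 1.10 to 1.35), Nr1i3 (CAR) at CT11.4 (1.35-fold, 1.18 to 1.54) and Nr1i2 (PXR) at CT13.8 (1.22-fold, 1.08 to 1.36). The flavin monooxygenases Fmo5 and Fmo1 peaked at CT16.3 (1.32-fold, 1.25 to 1.40) and CT17.3 (1.25-fold, 1.19 to 1.31). Cyp3a11, Cyp2e1 and Cyp1a2, among the most abundant cytochromes, varied 1.01- to 1.04-fold and did not pass.

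Conjugation enzymes had 12 of 27 called, 3 in the day and 9 in the night (39.2% of all called genes in the day). The sulfotransferase Sult1c2 peaked at CT6.90 (1.83-fold, 1.5 to 2.24) and the acetyltransferase Nat8 at CT20.0 (1.75-fold, 1.60 to 1.91). Its relative Nat8f5 ran from 9.34 (CT54) through 10.66 to 11.68 (CT18), a fold of 3.77 (3.10 to 4.59, peak CT18.5). Ppard, a nuclear receptor for fatty acids, ran from 8.27 (CT34) through 8.76 to 9.92 (CT22), a fold of 2.48 (2.02 to 3.05, peak CT21.5). Of 22 metabolic nuclear receptors 14 were called, 5 in the day and 9 in the night. Hnf4a, the main factor of hepatocyte identity, varied 1.08-fold and did not pass (adjusted p = 0.158).

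The hours before subjective dawn held the most genes. Besides Chka and Pdk4, the tubulin gene Tubb2a ran from 7.58 (CT34) through 9.59 to 10.40 (CT24), with a peak at CT21.7. Other cytoskeletal genes peaked with it, Tuba4a at CT21.4 (1.48-fold, 1.34 to 1.64), Tubb5 at CT22.2 (1.48-fold, 1.32 to 1.66) and Actb at CT21.5 (1.09-fold, 1.06 to 1.13), in a list with 7 of 11 called. For 6 of those 11 the lowest array was CT34, and without it 7 were again called. Methionine and folate genes had 13 of 18 called, none above 1.5-fold, with Cbs at CT2.00 (1.43-fold, 1.36 to 1.52), Bhmt2 at CT21.6 (1.31-fold, 1.25 to 1.37) and Cth at CT0.318 (1.31-fold, 1.22 to 1.40), enzymes of the route from homocysteine. Mitochondrial genes moved little: 11 of 27 respiratory chain genes (40.7%) and 5 of 15 citrate cycle genes (33.3%) were called, with median folds of 1.08 and 1.07. Cs, citrate synthase, peaked at CT23.2 (1.23-fold, 1.14 to 1.32). Of the antioxidant genes 9 of 19 (47.4%) were called, among them Gss at CT10.4 (1.49-fold, 1.33 to 1.66) and Gclc at CT0.619 (1.25-fold, 1.15 to 1.35), both of glutathione synthesis. Nfe2l2, the factor of this response, varied 1.03-fold (adjusted p = 0.912).

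Cholesterol synthesis closed the night. Of 17 measured enzymes 14 were called, 6 in the day and 8 in the night, and 14 again without CT34. The mean profile peaked at CT23.1 (SE 0.823 h), but the called members were spread from CT20.5 (Ebp) to CT3.23 (Nsdhl). The kinase Pmvk ran from 8.54 (CT58) through 9.21 to 9.77 (CT48), a fold of 2.02 (1.79 to 2.28, peak CT21.5), ahead of Hmgcs1, an earlier enzyme, and of the kinase Mvk at CT1.73 (1.38-fold, 1.21 to 1.56). The late enzymes Dhcr7 and Msmo1 peaked at CT22.7 (1.41-fold, 1.23 to 1.61) and CT1.89 (1.34-fold, 1.15 to 1.56). Insig2, which holds the sterol sensor in the endoplasmic reticulum, ran from 10.92 (CT36) through 11.96 to 12.53 (CT50), a fold of 2.77 (2.42 to 3.17, peak CT23.6, adjusted p = 2.19e-10). It belongs to the sterol sensing and uptake genes, of which 7 of 8 were called. Its paralog Insig1 peaked at CT18.8 (1.36-fold, 1.23 to 1.51) and Srebf2, the factor of the pathway, at CT22.6 (1.33-fold, 1.22 to 1.45). The sterol element, TCACNCCAC, was present in 5.88% (1 of 17, Hmgcs1) of the promoters of the synthesis list and in 1.18% of all promoters. Plasma proteins, the main secretion of the liver, were close to flat: 11 of 27 were called with a median fold of 1.05, Alb varied 1.02-fold (adjusted p = 0.664), and Fga, a fibrinogen chain, had the largest wave at 1.46-fold (1.33 to 1.60, peak CT23.1). A second, dimmer probe set of Fga varied 2.60-fold (peak CT22.4), so its size depends on the probe set. The mean profile of the plasma proteins had a median log2 of 12.9. Whether signal this high follows changes in RNA was not tested, here or for the other very bright genes named above.

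**Figure D4:**
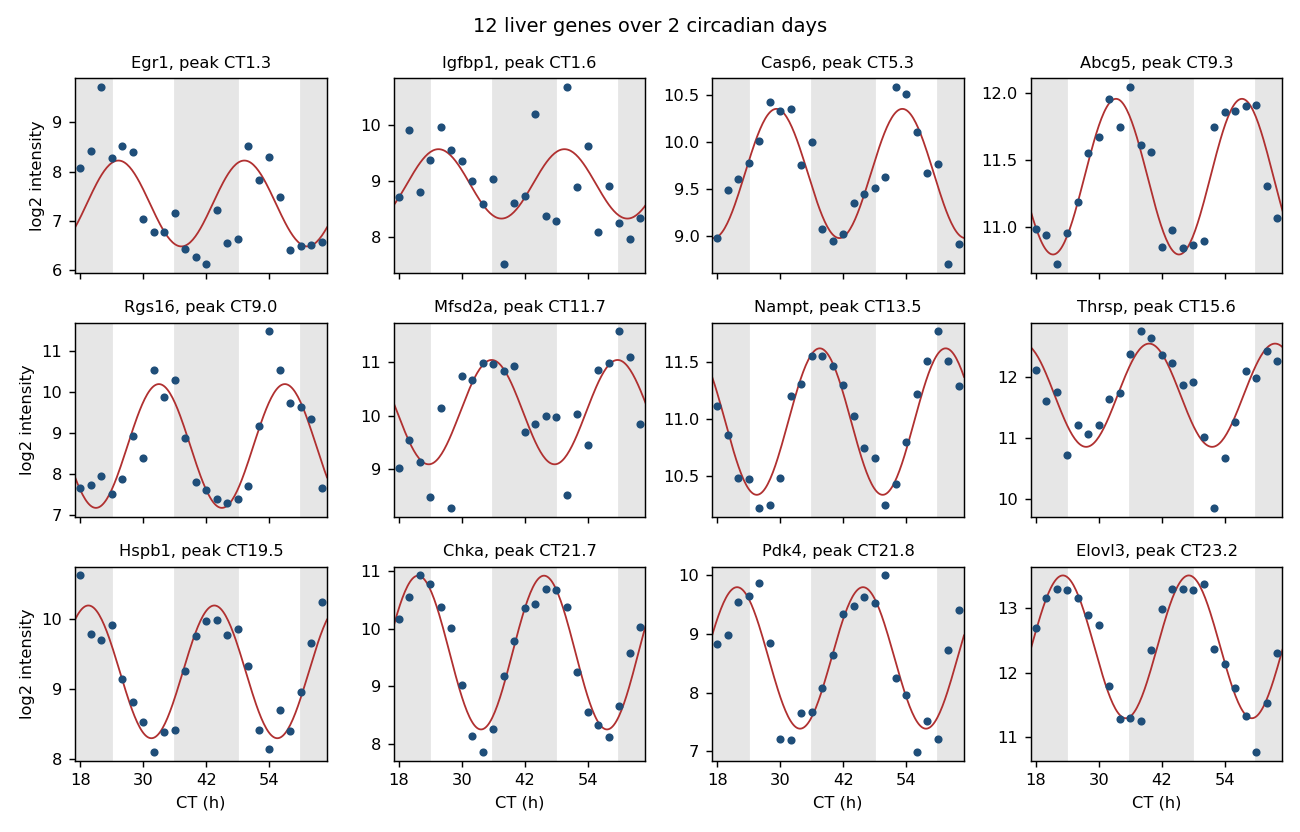
Log2 intensity (y axis) of 12 genes on the 24 liver arrays (blue points) against circadian time in h (x axis), with the fitted 24 h wave in red and the subjective night shaded. The genes run from peaks near CT1 (Egr1, Igfbp1) through CT9 (Rgs16, Abcg5), CT13.5 (Nampt) and CT19.5 (Hspb1) to CT23.2 (Elovl3), and Rgs16 stands above its fitted wave at CT54.

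Placed in order by the peak of the mean log2 profile, and taking only lists whose SE was under 1 h, the functions of the liver outside the clock lists ran as follows. Proteasome subunits came at CT1.35 (SE 0.969 h), cold-inducible RNA binding at CT5.44, bile transport at CT8.53 and amino acid transport at CT11.2 (SE 0.931 h). Glucose uptake and glycolysis (CT12.4, SE 0.643 h), cell cycle (CT12.8, SE 0.821 h) and the glucocorticoid response (CT13.5, SE 0.793 h) followed, then cytosolic chaperones (CT17.6), iron handling (CT17.8, SE 0.873 h), urea cycle (CT18.1, SE 0.687 h), fatty acid synthesis (CT18.4) and glycerolipid synthesis (CT19.0, SE 0.576 h). Xenobiotic enzymes at CT19.9 (SE 0.985 h), cytoskeleton at CT21.7 (SE 0.384 h), methionine and folate metabolism at CT22.8 (SE 0.597 h), sterol sensing (SE 0.546 h) and cholesterol synthesis both at CT23.1 and bile acid synthesis at CT23.9 (SE 0.562 h) closed the day. Neighbours lay within the sum of their SEs from amino acid transport to the glucocorticoid response, from chaperones to xenobiotic enzymes, and from methionine metabolism to bile acid synthesis. A mean profile is weighted towards members with large waves: scaled to SD, glucose uptake moved to CT15.0 (SE 1.14 h) and the other lists of this order moved by less. Scaled, the SE also passed 1 h for cell cycle (2.29 h), iron (1.42 h), xenobiotic enzymes (1.23 h) and sterol sensing (1.21 h). It did so narrowly for the urea cycle (1.08 h), amino acid transport (1.07 h) and the proteasome (1.03 h). The order would therefore hold fewer lists on the scaled profiles. CT34, the array that stood apart, was the lowest array of several of these mean profiles. They were those of the proteasome, iron, urea cycle, glycerolipid, xenobiotic, cytoskeleton, methionine and folate, and bile acid synthesis lists. The fitted fold of the mean profile was only 1.07 for the proteasome, urea cycle and xenobiotic lists. The peaks of the mean profiles were not refitted without CT34.

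**Figure D5:**
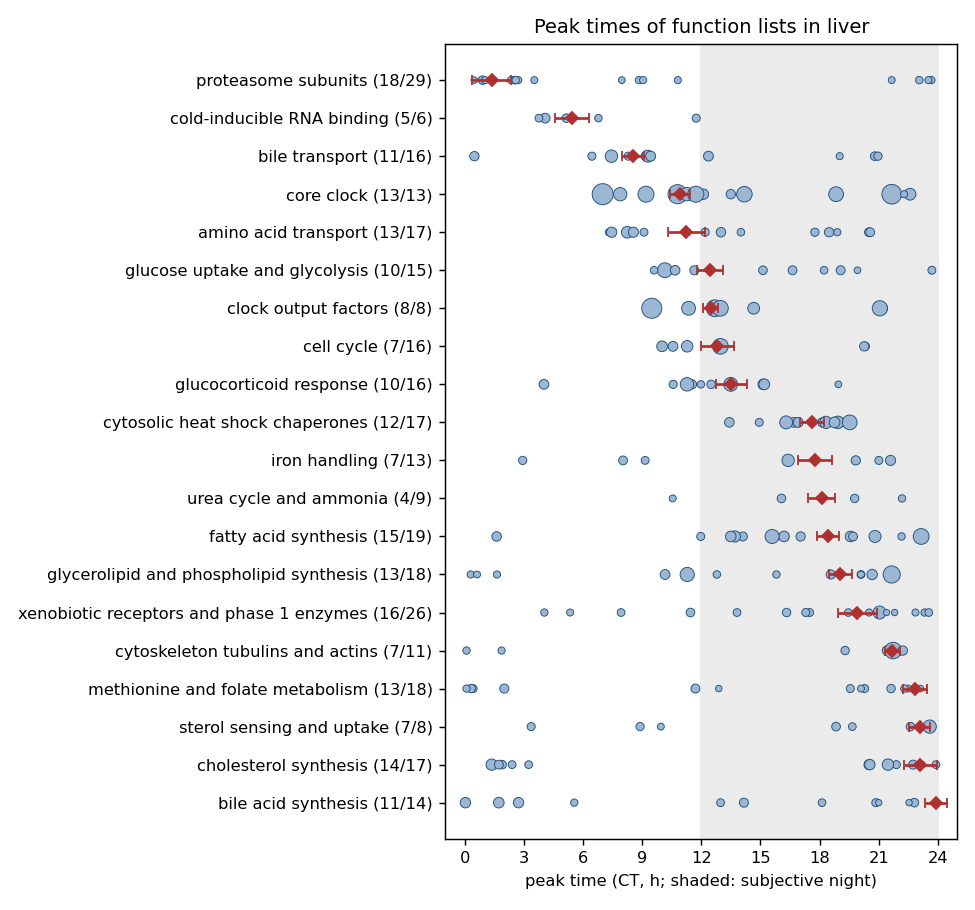
Fitted peak times (x axis, CT in h, subjective night shaded) of the called members (blue points, larger for larger folds) of each function list whose mean profile had a peak SE under 1 h, with the peak of that profile and its SE in red. Lists are ordered from the proteasome at CT1.35 to bile acid synthesis at CT23.9, with called and measured members in brackets, and called members of cholesterol synthesis lie on both sides of CT24.

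Waves with a 12 h period, fitted beside those of 24 h and 8 h, were called in 65 genes (0.326%), of which 60 were also called at 24 h, and their median 12 h fold was 1.26. Usp2 (2.20-fold at 12 h, 1.64 to 2.96, adjusted p = 0.0361), Cldn1, a tight junction protein (1.78-fold, 1.58 to 2.01, adjusted p = 0.0001), Per1 (1.78-fold, 1.42 to 2.24, adjusted p = 0.0489) and Arntl (1.74-fold, 1.40 to 2.16, adjusted p = 0.0483) had the largest. All 4 are 24 h genes whose course is not a plain cosine: Cldn1 stayed between 11.63 and 12.01 on the arrays from CT18 to CT28 and CT40 to CT52 and fell to 10.08 at CT34 and 9.92 at CT58. The count ranged from 25 to 108 when single arrays were left out (25 without CT28, 108 without CT36), and in the rank test 0 genes were called at 12 h. The 12 h calls of Usp2, Per1 and Arntl were lost when any of 15, 20 and 19 single arrays was left out.

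The rhythm of the liver was compared with that of the other 11 tissues and with kidney. Its wave differed from the mean wave of the others in 5330 genes (26.7%), and in 4993 with the time point as a block, with 4148 genes in both. The wave differed from that of kidney in 4019 genes (20.2%), and in 4452 with the block, with 3815 in both. The unblocked fit to all tissues shares 1 spread among tissues that differ in it, so genes named here passed both fits. The largest difference belonged to Rgs16, whose difference wave spanned 2.99 log2 units. Its mean wave in the others was 1.04-fold, and its wave in kidney was 1.17-fold. Chka (2.53), Pdk4 (2.44) and Tubb2a (2.28) followed, with 1.14-, 1.32- and 1.15-fold mean waves in the others. Denn2b, an exchange factor for small GTPases, differed by 2.10 (4.73-fold in liver, 3.77 to 5.95, 1.11-fold in the others). Aqp8, a water channel, ran from 9.73 (CT60) through 11.61 to 12.24 (CT22) in liver, 4.18-fold (3.24 to 5.39, peak CT22.8), and differed by 1.93. The dehydrogenase Dhrs9 (4.46-fold in liver, 3.40 to 5.83) and Ppp1r3c both differed by 1.87. In the rank test Denn2b (adjusted p = 0.0512) and Ppp1r3c (0.0785) missed.

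Of the 21 clock and clock output genes, 8 had a wave that differed from that of kidney in both fits. These were Usp2 (5.90-fold in liver, 1.73-fold in kidney), Wee1, Cry1 (3.72 and 2.28), Clock, Tef, Per3 (5.02 and 3.75), Tspan4 and Rora. Nr1d1 varied 18.4-fold in liver and 9.45-fold in kidney, and the difference passed with the time point as a block (adjusted p = 0.0154) but not without it (0.116). Ciart, with 10.7- and 6.78-fold waves, likewise passed with the block only (0.000453 and 0.0785). With the block 14 of the 21 passed in all, and 7, among them Dbp, Arntl and Per1, passed in neither fit. Dbp varied 13.7-fold in liver and 12.1-fold in kidney, with peaks at CT9.48 and CT9.59, and the test of the difference gave an adjusted p of 0.908. Arntl varied 12.1-fold and 9.54-fold (adjusted p = 0.603), and Per1 2.84-fold and 2.36-fold (0.706). A difference that missed the threshold does not show that the waves were alike. Nat8f5 cycled strongly in both organs, 3.77-fold in liver and 3.26-fold in kidney, but about 4 h apart, at CT18.5 and CT14.4, and the difference passed (adjusted p = 1.86e-10). Thrsp varied 2.11-fold in kidney with a peak at CT16.8, and the difference did not pass (adjusted p = 0.0729). Among the 634 genes chosen for a liver wave above 1.5-fold, the median fold was 1.17 in kidney, where 85 of them exceeded 1.5-fold, and 1.08 for the mean wave of the others. These genes were chosen for a large wave in liver, and a mean over tissues with different peak times is flatter than its parts, so no test is drawn from those medians.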

How the data were processed

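RNA of 12 mouse tissues, liver among them, was measured on 288 Affymetrix arrays. Per the labels' protocols, each organ was put through Trizol and column purification, and RNA of 3 mice was pooled per organ and time. The unit deposited by the authors is intensity on a linear scale (6.9 to 45307.8), made with Affymetrix Expression Console and GCRMA per the submitters' processing notes. Neither a version nor an order of steps is given in the sources used here. The tests were planned for log2 values, but the deposited values were linear intensities, so log2 was taken here with no pseudocount.

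Of 35556 probe sets, 21789 carried 1 gene symbol, 1621 several and 12146 none. Of the resulting 19938 genes, 999 had several probe sets, and for these the brightest on average was used. Gene names and positions are those of RefSeq GRCm38.p6 (21698 identifiers found, 91 not). Array medians in liver lay between 97.25 and 106.6.

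Waves were fitted with limma 3.58.1 in R 4.3.3 (lmFit, eBayes with a trend), tested with the moderated F test and adjusted by Benjamini-Hochberg over all genes. With 1 array per time and no replicates, p-values measure the spread of pools around the wave, and precision is limited by the number of arrays. Peak SE is by the delta method. The scripts were tested on simulated data, in which the fit to all tissues called too many unchanged genes and the fit with a time-point block did not.

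The tissue, the 40 function lists (719 measured members of 783, some in several lists), the 16 marker lists and the alternatives were chosen with earlier results of these data known. List members outside the gene table were not analysed here. Named genes are the 3 largest folds in each 3 h window of peak time (called, above the median level, both cycles within 4 h, outside the clock lists, no predicted names), the first member and the 4 largest called folds of each list, all clock genes, and the largest 12 h waves (4) and differences from other tissues (8). Others were named after their values were seen, to show members that did not pass or the partners of a named gene. Motifs were searched by exact letters, on both strands. The alternatives were ranks, a pseudocount of 32, median centring, a level filter, the mean of probe sets, array weights, no variance trend, added covariates, and each array left out.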

Additional observations from a re-analysis of the deposited data

Results flagged for a closer look

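The liver wave differed from the mean wave of the other 11 tissues in 5330 genes and from that of kidney in 4019, by tests of the difference itself. In simulated data the unblocked fit to all tissues called too many unchanged genes. The counts that passed both this fit and the fit with the time point as a block were 4148 and 3815. Without the array at CT34 the unblocked count for the other 11 tissues was 4245. The genes with the largest difference from the other 11 tissues, as the span of the difference wave in log2 units, were Rgs16 (2.99), Chka (2.53), Pdk4 (2.44), Tubb2a (2.28), Denn2b (2.10), Aqp8 (1.93), Dhrs9 (1.87) and Ppp1r3c (1.87). Outside the gene table, 13767 probe sets with several symbols or none were tested by themselves, and 1458 of them (10.6%) had a called 24 h wave, 315 above 1.5-fold. Those probe sets were not used in any comparison above.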

How the results depend on the processing

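The count of 24 h waves, 5343, ranged from 4717 (without CT58) to 5482 (without CT32) when single arrays were left out. It was 5898 with ranks, 4882 with a straight line as covariate and 5078 with arrays centred on their median. On 12 arrays it was 1145 for the first cycle and 2914 for the second, with fewer arrays. The 12 h count of 65 was 0 with ranks, 28 with arrays centred, 122 among genes above the median level, 98 with array weights, and 25 to 108 with single arrays left out. For the difference from the other 11 tissues (5330) ranks gave 3327, the array at CT34 left out 4245, and the block by time point, which pairs arrays of the same time, 4993. For kidney (4019) ranks gave 2360 and the block 4452, and none of the 8 named differences changed its call under the block. The 8 named differences from other tissues were refitted without CT34 but not without any other single array. Of all 217 named results, these 8 included, 20 changed their call when at least 1 of the arrays was left out. The cause of these changes was not tested.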
